A study of Mus musculus with 4 samples.

Results

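The genes that flank Pparg on mouse chromosome 6 were examined in regulatory T cells (Treg cells), which carry the factor FOXP3 and hold immune responses in check. In mm9, the genome build of the deposited loci, Pparg spans 115311239 to 115440419 on chromosome 6, and the window taken around it ran from 90 to 120 Mb. Of the 185 gene loci that lay wholly inside the window, Pparg itself, Irak2 and the ribosomal protein gene Rpl32 were left out. This gave 182 window genes out of 23284 gene symbols counted. Membership rested on position and used no expression value, though it was fixed with earlier results of these data known. Pparg lies nearer the upper end of the window, so most of the window is below it. The series has 4 RNA sequencing libraries, 1 per tissue in each genotype, from C57BL/6 mice aged 12 to 13 months. The tissue was either the epididymal fat pad (eWAT, a white visceral fat depot) or the spleen as its control. The genotype was either wild type (WT) or PPARg-2KR (2KR below), a form of the receptor in which lysines that can be acetylated are replaced by arginine. Not given in the sources used here are the number of animals per library, the sort gates, the strain of the cells in which the allele was made and the number of backcrosses. Values of the 4 libraries are listed in the order WT eWAT, 2KR eWAT, WT spleen, 2KR spleen.

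Pparg encodes a nuclear receptor that drives fat cell formation and is expressed at a high level by Treg cells of visceral fat. It binds DNA together with a retinoid X receptor, at direct repeats of the hexamer AGGTCA with a single base between them. When an allele is made in stem cells of one mouse strain and bred onto another, the DNA beside the edited gene is inherited with it until recombination separates them, so neighbours of the gene can differ between genotypes for reasons of their own sequence. The comparison asked whether genes near Pparg differed between 2KR and WT more often, or in both tissues more often, than the rest of chromosome 6 (1049 genes) and the other autosomes (20784 genes).

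Promoter sequence is shown for the 3 window genes with at least 20 CPM on average and the ratios that the results below return to, Slc41a3, Lrig1 and Plxnd1. The sequences come from the RefSeq promoter table for GRCm38.p6, a later build than the mm9 of the files, are written 5′ to 3′ on the gene's own strand and hold no annotated exon. Capitals mark the E-box CACGTG in Slc41a3 and, in Plxnd1, the reverse complement of AGGTCA, while Lrig1 held neither. The Slc41a3 stretch lies at chr6:90618996-90619146 (plus strand), before the later of the gene's start sites, the Lrig1 stretch at chr6:94700299-94700395 (minus strand) and the Plxnd1 stretch at chr6:115995091-115995120 (minus strand). The RefSeq start used for Plxnd1 lies 334 bases inside the gene's outermost start, so that stretch falls within the gene's outermost bounds, while the Lrig1 stretch lies before the outermost start.
Slc41a3: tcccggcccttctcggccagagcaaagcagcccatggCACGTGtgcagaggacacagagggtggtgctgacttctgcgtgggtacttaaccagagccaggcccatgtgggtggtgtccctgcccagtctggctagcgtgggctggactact
Lrig1: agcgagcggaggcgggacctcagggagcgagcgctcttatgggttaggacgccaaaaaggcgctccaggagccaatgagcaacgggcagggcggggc
Plxnd1: atcggccaccagTGACCTcggaccgcgggg
RefSeq listed 176 promoters for 133 of the 182 window genes. Searched on both strands over the 250 bases upstream, AGGTCA occurred in 12.5% of the window promoters and in 14.0% of all 32851 promoters, and CACGTG in 6.82% and 6.02%. The full repeat, AGGTCA followed by any base and AGGTCA again, occurred in 0 window promoters and in 11 of all promoters (0.0335%). The GC content of the same 250 bases was 61.2% for Slc41a3, 71.6% for Lrig1 and 64.8% for Plxnd1, against a median of 52.4% over all promoters (quartiles 45.2 and 61.2%).

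Total counts ran from 8315569 (2KR eWAT) to 15993889 (2KR spleen). A count of 0 allows up to 3 reads, which is 0.197 to 0.311 CPM (reads scaled to library sizes adjusted by the trimmed mean of M-values, TMM). The 6 Treg markers, Foxp3 among them, were present in every library and summed to 4580 to 5922 CPM. Markers of antigen-presenting cells summed to 5827, 10535, 842 and 566 CPM in that order, and were higher in eWAT. In bulk libraries such as these, fewer cells of a type and less RNA per cell cannot be told apart. Pparg itself had 130, 63.9, 5.73 and 2.89 CPM, with 2KR below WT by a log2 ratio of −1.02 in eWAT and −0.95 in spleen.

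With 1 library per group, a ratio within a tissue has no replicate check and no p-value. Ratios are log2 of 2KR over WT, computed from TMM-scaled CPM after adding a prior count of 2, and a ratio of at least 1 or at most −1 was counted as past the fold. The 95% exact intervals beside single genes are conditional binomial intervals that cover counting error only, since reads without molecular identifiers are not independent molecules. Of the 182 window genes, 115 reached 5 CPM in at least 1 library and 67 did not. The latter include all 12 olfactory or vomeronasal receptor genes of the window. Because 1 library was enough, a gene could pass through the library in which it was high. Of the 115 genes, 24 overlapped another locus, and reads of overlapping genes cannot be assigned with certainty.

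In eWAT the window genes were centred where other genes were. Their median log2 ratio was −0.08 (quartiles −0.32 and 0.45), against −0.04 in the rest of chromosome 6 and −0.08 on the other autosomes, whose medians ran from −0.13 to 0.00 over 18 chromosomes. Scaling by total counts in place of TMM raised the median ratio of all genes in eWAT by 0.26, so eWAT ratios are read against the other genes and not against 0. There were 11 window genes at 1 or more, or 9.57% of the 115, against 5.31% of all 12307 genes kept, 7.48% of the rest of chromosome 6 and 5.28% of the other autosomes. There were 2 window genes at −1 or less (1.74%), against 2.36% of all genes, 3.35% and 2.32%.

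The eWAT genes past the fold were mostly low. The 11 higher ones were Lrig1, Pdzrn3, Chl1, Cntn6, Setmar, Srgap3, Cpne9, Hrh1, Anubl1, Ret and Zfp248, and the 2 lower ones were Slc41a3 and 8430408G22Rik. Of the 11, 7 had under 100 reads in both eWAT libraries, and the mean of the 11 over the 4 libraries had a median of 4.45 CPM. Pdzrn3, Chl1, Cntn6, Cpne9, Hrh1, Anubl1 and Ret reached 5 CPM in 2KR eWAT alone. They were thus kept only through the library in which they were high. Chl1, a neural cell adhesion gene, had 42, 120, 32 and 26 reads, a ratio of 1.64 in eWAT (1.17 to 2.23) and −0.56 in spleen (−1.41 to 0.19). Its level was high in 2KR eWAT alone. Among the 65 window genes with a mean of at least 20 CPM, 1 was past the fold upward (Lrig1) and 1 downward (Slc41a3), against 0.677% and 1.99% of all 7683 such genes.

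Cell type markers also differed between the eWAT libraries. The 4 mast cell markers summed to 3.14 CPM in WT eWAT, where Mcpt4 was at 0, and to 56.3 CPM in 2KR eWAT, and all 4 were higher in 2KR. Of the 5 markers of dendritic cells and antigen presentation 4 were higher in 2KR eWAT, while 0 of the 5 fibroblast and mesothelium markers were, with sums of 471 CPM in WT and 198 CPM in 2KR. Macrophage and monocyte markers summed to 1168 CPM in WT and 1465 CPM in 2KR (5 of 5 found higher), B cell markers to 49.7 and 96.1 CPM (4 of 4) and endothelial markers to 84.9 and 141 CPM (3 of 3). Treg markers summed to 5922 CPM in WT and 4580 CPM in 2KR, 1 of 6 higher, with Foxp3 at a log2 ratio of −0.53. Of the 11 window genes higher in 2KR eWAT, 6 were also called higher in eWAT than in spleen by the test described below. All 6 were under 5 CPM in both spleen libraries, so they were kept through eWAT alone. The part of these markers in the eWAT ratios was not tested.

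In spleen the median log2 ratio of the window genes was −0.08 (quartiles −0.25 and 0.14), against −0.09 in the rest of chromosome 6 and −0.06 on the other autosomes, whose medians ran from −0.11 to −0.03. There were 3 window genes at 1 or more (2.61%): Plxnd1, Kbtbd8 and Zfp239. All genes gave 1.03%, the rest of chromosome 6 1.57% and the other autosomes 0.989%. There were 11 at −1 or less (9.57%), against 5.71%, 7.48% and 5.72%. The lower genes were Slc41a3, Fbln2, Fgd5, Prickle2, Adamts9, Cntn4, Srgap3, Atp2b2, Hrh1, March8 and 8430408G22Rik. All but Slc41a3, 10 of the 11, had under 100 reads in both spleen libraries. These 10 were under 5 CPM in both spleen libraries and were kept through eWAT alone. They were also called higher in eWAT than in spleen, which the filter largely set in advance. Markers of some other cell types had lower sums in 2KR spleen. Macrophage and monocyte markers summed to 79.3 CPM in WT spleen and 60.4 CPM in 2KR spleen (1 of 5 higher). Those of dendritic cells and antigen presentation summed to 842 and 566 CPM (1 of 5) and fibroblast and mesothelium markers to 5.41 and 3.74 CPM (1 of 5), with none at 0. Their part in the spleen ratios was not tested.

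**Figure D1:**
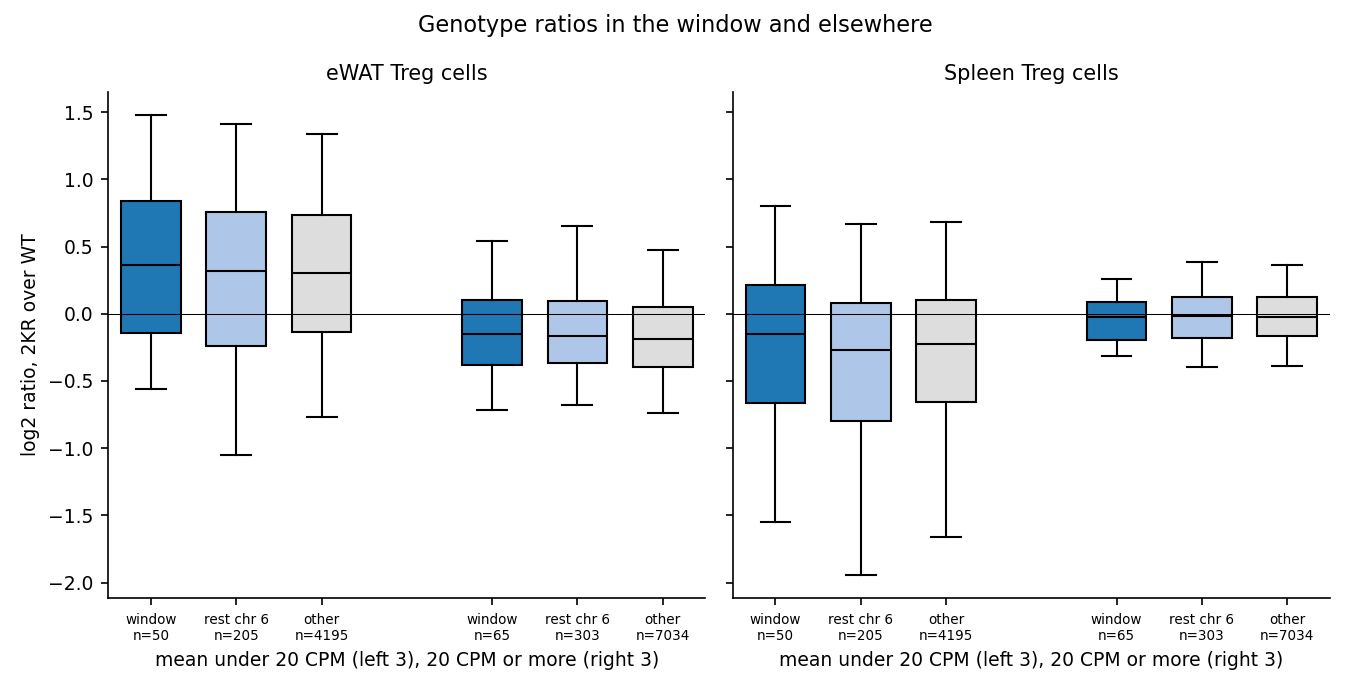
Box plots of the log2 ratio of 2KR over WT (y axis, no unit) in eWAT (left) and spleen (right), for genes with a mean under 20 CPM and of 20 CPM or more, in the window, in the rest of chromosome 6 and on the other autosomes. The line is the median, the box the quartiles and the whiskers the 5th and 95th percentiles over genes. In genes of 20 CPM or more the window medians were −0.15 in eWAT and −0.02 in spleen, beside −0.17 and −0.02 in the rest of chromosome 6 and −0.19 and −0.02 on the other autosomes.

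Among genes measured with more reads, few were past the fold in spleen. Of the 65 window genes with a mean of at least 20 CPM, 1 was past the fold upward (Plxnd1) and 2 downward (Slc41a3 and Fbln2), against 0.169% and 0.456% of all such genes. Together they made 4.62% of the 65, against 0.990% in the rest of chromosome 6 and 0.597% on the other autosomes, where single chromosomes ran from 0 to 1.24%. The count is 3 genes, and Fbln2, an extracellular matrix gene, reached the mean only through eWAT. It had 354, 460, 28 and 1 reads. Its ratio was −3.39 in spleen (−10.46 to −2.51), from a single read in 2KR, and 0.54 in eWAT (0.34 to 0.75). On the authors' FPKM (log2 of FPKM + 0.5, centred on the median of the autosomal genes kept) the spleen ratio was −0.87.

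**Figure D2:**
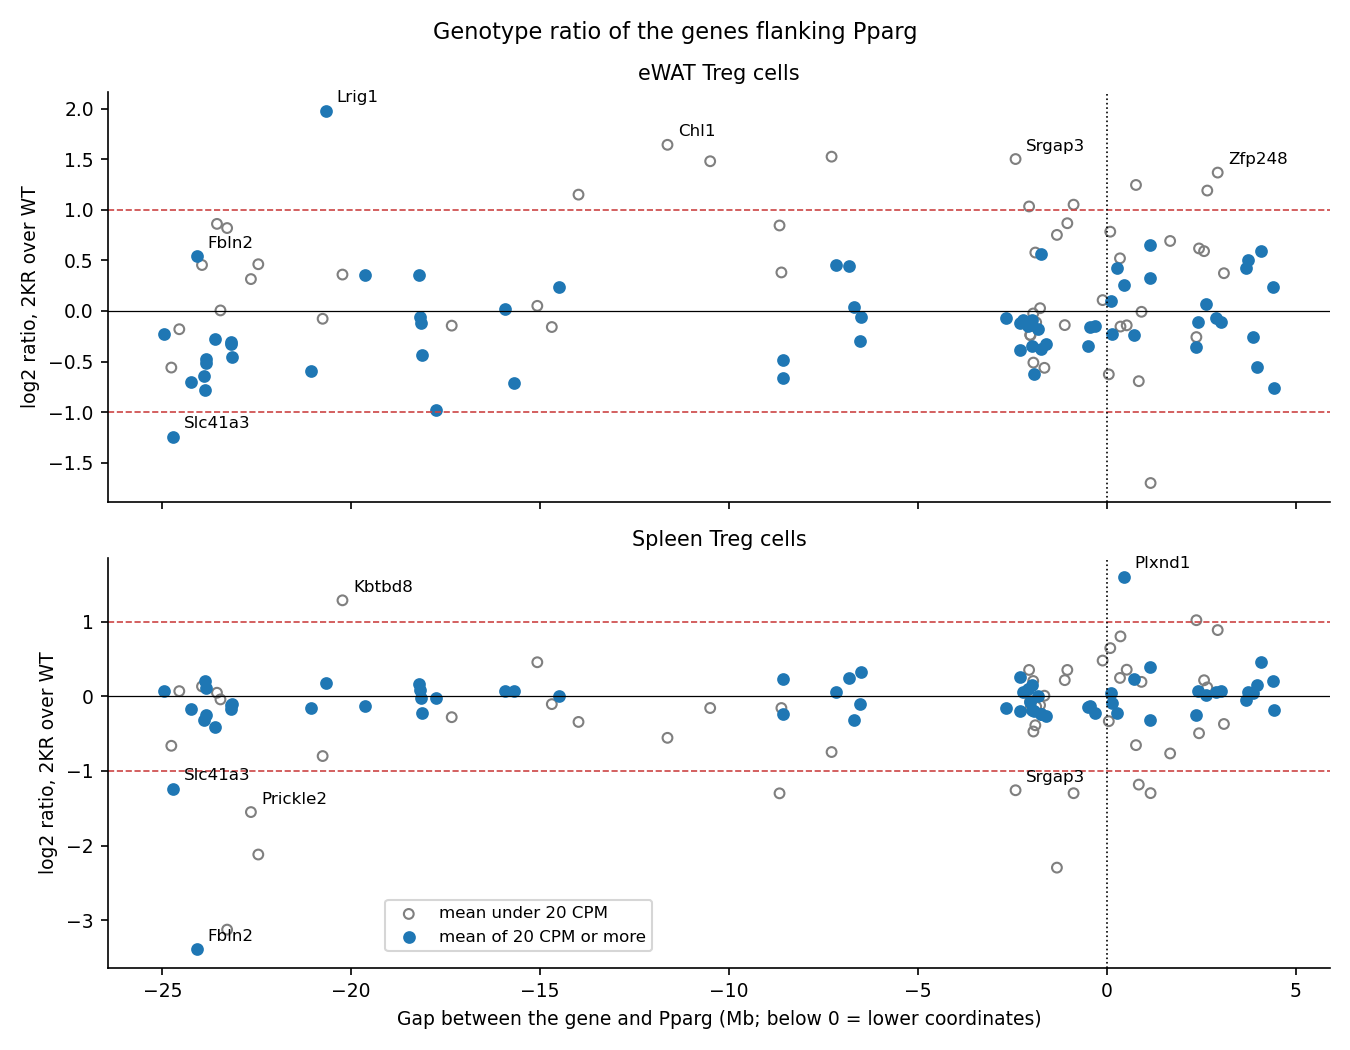
Log2 ratio of 2KR over WT (y axis) of the 115 window genes kept, against the gap between each gene and Pparg in Mb (x axis), in eWAT (top) and spleen (bottom). Each point is 1 gene and each ratio compares 1 library with 1 library. Filled points have a mean of 20 CPM or more, and dashed lines mark ratios of 1 and −1. Slc41a3 lies under −1 in both panels, at −1.24 in each, 24.7 Mb from Pparg.

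An edgeR quasi-likelihood test of genotype was run over all 4 libraries, with tissue as a term and 1 residual degree of freedom. This common genotype test fitted 1 genotype difference to both tissues and did not require their ratios to be alike. With 1 library per group, its residual spread is how far the tissues' ratios differ, pooled in part over genes, and holds no replicate spread. Ratios that lie close together therefore favour a call. The p-values cover these 4 libraries alone, whose differences may be technical. Of 16488 genes tested, 11 were lower in 2KR (0.0667%) and 0 were higher (0.0%). The window had 137 genes in the test, of which 1 was lower and 0 were higher, and the other 10 lower genes lay on other autosomes. At an unadjusted p under 0.05 there were 5 window genes higher (Lrig1, Kbtbd8, Plxnd1, Zfp248 and Erc1) and 5 lower (Slc41a3, Chchd4, Frmd4b, Jagn1 and Wnk1), 3.65% in each direction, where all genes gave 1.29% higher and 3.43% lower. The DESeq2 Wald test called 0 window genes in either direction, and 0 higher and 3 lower of all genes.

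The gene that passed was Slc41a3, which encodes a magnesium transporter of mitochondria. It had 563, 211, 558 and 290 reads, or 52.0, 21.9, 45.1 and 19.0 CPM. In each tissue the 2KR library was under the WT library by more than counting error, and the WT libraries stood close to each other. The log2 ratio was −1.24 in eWAT (−1.48 to −1.02) and −1.24 in spleen (−1.45 to −1.04). The common fold change was −1.24 (SE 0.19, edgeR adjusted p = 0.00369). The call held with DESeq2's size factors in edgeR (adjusted p = 0.00580), with total count scaling (0.0186) and without the filter on low counts (1.27e-05), but not in DESeq2 (adjusted p = 0.438) or without the tissue term (edgeR adjusted p = 0.9999).

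Slc41a3 spans 90554874 to 90596406 in mm9, near the lower end of the window. Its transcripts start 14336 bases apart. On the authors' FPKM per transcript, NM_027868, from the earlier start, held 91.9, 88.4, 61.9 and 69.8% of the gene's FPKM. In eWAT its log2 ratio was −1.08 and in spleen −1.05. NM_001037493, whose start the printed Slc41a3 sequence precedes, had −0.50 in eWAT and −1.56 in spleen, so both transcripts lay under 0 in both tissues. The neighbour 5.71 kb away, Aldh1l1, an enzyme of folate metabolism, had ratios of −0.56 in eWAT (−1.12 to −0.05) and −0.66 in spleen (−1.08 to −0.28). On the other side Iqsec1, 13.2 kb away, had −0.18 in eWAT (−0.44 to 0.08) and 0.07 in spleen (−0.23 to 0.37), and Nup210, 367 kb away, had −0.70 (−0.80 to −0.60) and −0.17 (−0.23 to −0.10).

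Plxnd1, which encodes the semaphorin receptor plexin D1, lies 0.464 Mb above Pparg (115904829 to 115945023 in mm9). It had 483, 513, 218 and 820 reads, or 44.6, 53.2, 17.6 and 53.8 CPM. WT spleen stood low and the other libraries lay close together. The ratio was 1.60 in spleen (1.39 to 1.83) and 0.25 in eWAT (0.07 to 0.44). The common fold change of 0.92 (SE 0.24) did not pass (edgeR adjusted p = 0.318), though it did with total count scaling (0.0467) and without the filter on low counts (0.0206). Next to it Ift122 had 0.80 in spleen (0.38 to 1.29) and −0.15 in eWAT (−0.61 to 0.30), and Tmcc1 had 0.36 (0.11 to 0.61) and −0.14 (−0.44 to 0.16). Both were above 0 in spleen, by less than Plxnd1.

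Lrig1, which encodes a membrane protein that restrains growth factor receptors, lies 20.7 Mb below Pparg (94554523 to 94650139). It had 148, 524, 1933 and 2701 reads, or 13.7, 54.4, 156 and 177 CPM. It was high in spleen and lowest in WT eWAT. The ratio was 1.98 in eWAT (1.73 to 2.27) and 0.18 in spleen (0.10 to 0.27). The common fold change of 1.02 (SE 0.28) did not pass (edgeR adjusted p = 0.434), though it did without the filter on low counts (0.0176). Lrig1 overlaps Slc25a26, whose ratios were −0.08 in eWAT (−0.50 to 0.34) and −0.80 in spleen (−1.21 to −0.42). The next gene, Kbtbd8, an adaptor of cullin ubiquitin ligases, had 131, 150, 76 and 232 reads. Its ratio was 1.29 in spleen (0.93 to 1.70) and 0.36 in eWAT (0.02 to 0.71).

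**Figure D3:**
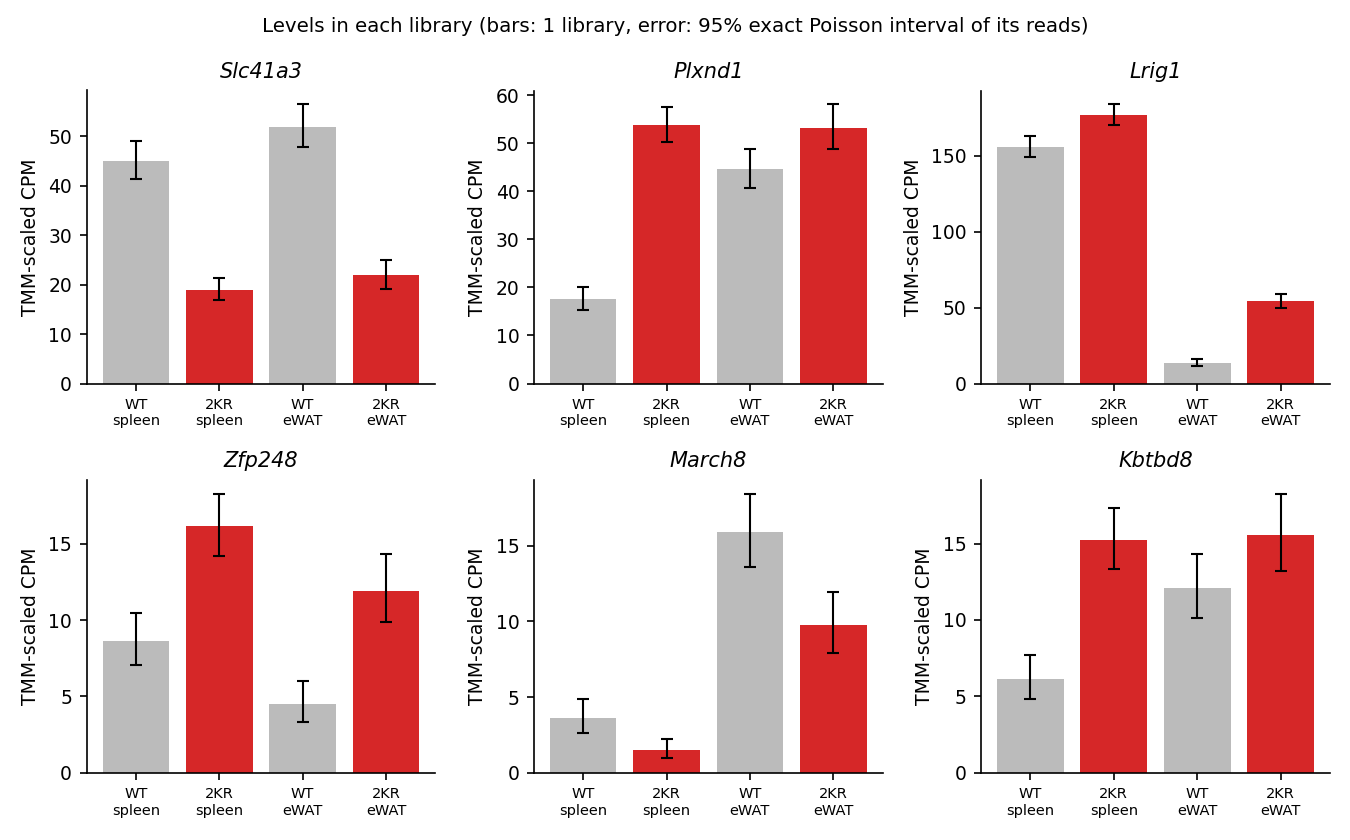
Levels of 6 window genes in each of the 4 libraries, as TMM-scaled CPM on linear axes that start at 0. Each bar is 1 library (grey WT, red 2KR) and the error bar is the 95% exact Poisson interval of its reads. Slc41a3 and March8 are lower in 2KR in both tissues and Zfp248 is higher in both, while the gap of Plxnd1 and Kbtbd8 is wide in spleen and that of Lrig1 in eWAT.

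Ratios past 0.5 in both tissues, in the same direction, were found for 6 of the 115 window genes (5.22%). All genes gave 3.18% and the rest of chromosome 6 4.72%, and single other autosomes ran from 1.45 to 4.31%. The 2 tissues' ratios share no library. There were 2 genes at 0.5 or more in both (1.74% of 115, against 1.54% of all genes and 2.36% of the rest of chromosome 6): Zfp248 and 2510049J12Rik. There were 4 at −0.5 or less in both (3.48%, against 1.63% and 2.36%): Slc41a3, Aldh1l1, March8 and 8430408G22Rik. The other autosomes gave 1.56% and 1.54%, with single chromosomes from 0.946 to 2.11% upward and from 0.482 to 2.30% downward. With total count scaling the counts were 4 upward and 2 downward. Of the 65 genes with a mean of 20 CPM, 0 were past 0.5 upward in both tissues and 1, Slc41a3, downward, against 0.208% and 0.417% of all such genes. The ratios of the 115 genes had the same sign in both tissues for 64 and opposite signs for 51. The share of like signs over all genes was not counted. The window genes' Pearson correlation between tissues, which is across genes and not across replicates, was −0.09. It was −0.16 over all genes kept, −0.04 in the rest of chromosome 6 and −0.17 on the other autosomes.

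Zfp248, a zinc finger gene, had 49, 115, 107 and 246 reads, with ratios of 1.37 in eWAT (0.91 to 1.91) and 0.89 in spleen (0.57 to 1.24). March8, which encodes a membrane ubiquitin ligase that removes surface receptors, had 172, 94, 45 and 23 reads and ratios of −0.69 (−1.08 to −0.33) and −1.18 (−2.06 to −0.51). For these genes every interval lay on the same side of 0. For 2510049J12Rik the spleen interval spanned 0 (0.65, −0.68 to 2.50), with 6 and 13 reads. The ratio of 8430408G22Rik, −1.70 in eWAT (−2.44 to −1.13), had 3 and 0 reads behind it in spleen. This locus overlaps Rassf4, so its reads may be shared.

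**Figure D4:**
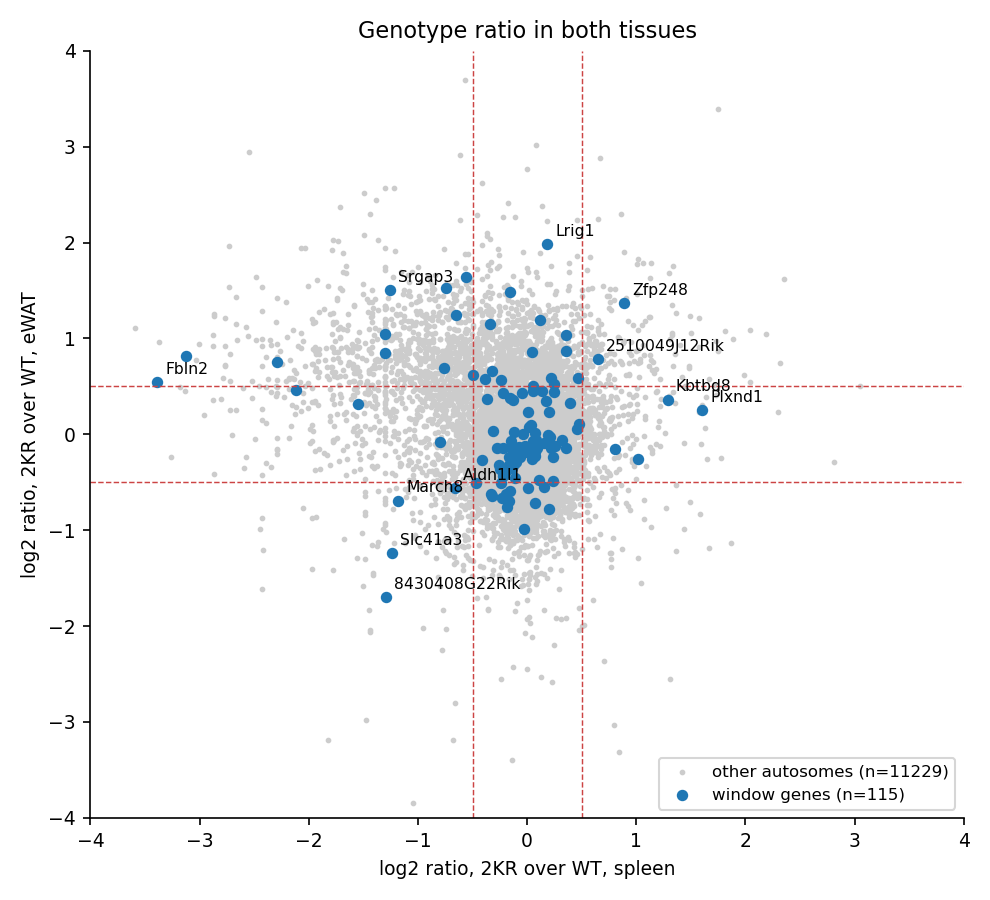
Log2 ratio of 2KR over WT in eWAT (y axis) against that in spleen (x axis), for the 115 window genes (blue) and 11229 genes of the other autosomes (grey, 4 of them outside the axes). Dashed lines mark 0.5 and −0.5. Slc41a3 sits at −1.24 on both axes, and 2 window genes lie in the upper right corner and 4 in the lower left.

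The genes closest to Pparg had small ratios. On the lower side stand Timp4, an inhibitor of matrix proteases, 1500001M20Rik, Vgll4, a cofactor of TEAD transcription factors, and Atg7, an enzyme of autophagy. Vgll4 had 83.5, 74.6, 93.3 and 85.0 CPM and ratios of −0.16 in eWAT and −0.13 in spleen. Atg7 had −0.35 (−0.58 to −0.12) and −0.14 (−0.30 to 0.03), and 1500001M20Rik −0.15 and −0.22. Timp4 had 75, 72, 0 and 1 reads, and an eWAT ratio of 0.11 (−0.38 to 0.60). On the upper side stand, among others, 2510049J12Rik and Mkrn2, a ubiquitin ligase. Mkrn2 had 520, 496, 758 and 959 reads, and ratios of 0.10 in eWAT (−0.08 to 0.28) and 0.04 in spleen (−0.10 to 0.18). Mkrn2 and Timp4 each overlap another locus. None of these 6 genes was past the fold in either tissue, and none passed the common genotype test (edgeR adjusted p of 0.9999 for each).

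Distance from Pparg did not order the ratios. Of 18 kept genes within 1 Mb the median ratio was −0.07 in eWAT and −0.02 in spleen. The 48 genes from 1 to 5 Mb had −0.09 and −0.02, the 15 from 5 to 15 Mb 0.38 and −0.16, and the 34 farther out −0.16 and −0.11. The bins within 1 Mb and from 5 to 15 Mb hold under 20 genes each. With a mean of at least 20 CPM, the genes past the fold in either tissue were Plxnd1 within 1 Mb and Slc41a3, Lrig1 and Fbln2 beyond 15 Mb, and there were 0 between 1 and 15 Mb. At the lower edge of the window the first genes inside, Zxdc and Aldh1l1, had ratios of −0.22 and −0.56 in eWAT and 0.07 and −0.66 in spleen. The nearest outside, Txnrd3 and Vmn1r45, had −0.41 and 0.27 in eWAT and −0.54 and 0.15 in spleen. At the upper edge Rad52 and Wnk1, inside, had 0.24 and −0.76 in eWAT and 0.20 and −0.18 in spleen, and Ccdc77 and Kdm5a, outside, 0.09 and −0.01 and then 0.01 and −0.02.

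The window genes were also read by role, in lists written from general knowledge. For comparison, 7.67% of all genes kept were past the fold in eWAT and 6.74% in spleen, both directions together. Of 15 genes of transcription and chromatin 13 were kept, and 1 (Zfp248) was past the fold in eWAT and 0 in spleen, with medians of −0.09 and 0.04. Bhlhe40, a transcriptional repressor of activated T cells, had 589, 605, 162 and 131 CPM, and ratios of 0.04 in eWAT (−0.01 to 0.09) and −0.31 in spleen (−0.40 to −0.22). Foxp1, a forkhead factor of resting T cells, had 142, 143, 288 and 302 CPM, with ratios of 0.02 (−0.09 to 0.12) and 0.07 (0.01 to 0.13). Foxp1 stood at like levels in WT and 2KR, as did Bhlhe40 in eWAT, while in spleen Bhlhe40 was lower in 2KR by more than counting error. Both genes stood at different levels in the 2 tissues. Hnrnpf, a splicing factor, had −0.11 in eWAT and 0.07 in spleen, and Nr2c2, an orphan nuclear receptor that also binds AGGTCA repeats, −0.31 and −0.12. Per length, Hnrnpf stood at 423 to 644 FPKM, above Bhlhe40 (43.5 to 257 FPKM) and Foxp1 (19.0 to 39.6 FPKM).

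All 8 genes of the DNA repair list were kept, with medians of −0.02 in eWAT and −0.09 in spleen, and 1, Setmar, was past the fold in eWAT. Xpc, which recognises lesions for nucleotide excision repair, had −0.48 in eWAT (−0.72 to −0.24) and 0.11 in spleen (−0.02 to 0.24). Rad52, a recombination gene, had 0.24 and 0.20, and Rad18, a ubiquitin ligase of damage bypass, −0.07 and −0.15. The list also holds Thumpd3, a tRNA modification gene, at −0.38 and −0.19. Of 15 signalling genes 12 were kept, and in eWAT 4 were past the fold upward (Lrig1, Srgap3, Hrh1 and Ret). In spleen 1 was past it upward (Plxnd1) and 2 downward (Srgap3 and Hrh1). Their medians were 0.51 and −0.13, against −0.08 and −0.07 over all genes. Of all genes 5.31% were past the fold upward in eWAT, and of those with a mean under 20 CPM 13.0%, with a median of 0.29. In spleen 1.03% of all genes were past it upward and 5.71% downward, and 2.47% and 14.4% of those under 20 CPM. Itpr1, the calcium release channel of the endoplasmic reticulum, had 0.44 in eWAT (0.27 to 0.62) and 0.24 in spleen (0.07 to 0.42), and Arl8b, a lysosomal GTPase, −0.29 and −0.10.

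Of the 15 genes listed for protein turnover and trafficking 12 were found and kept. None was past the fold in either tissue. Of all genes with a mean of 20 CPM or more, 2.67% were past it in eWAT and 0.625% in spleen. The medians of the list were −0.23 in eWAT and −0.16 in spleen. Crbn, a substrate receptor of cullin ubiquitin ligases, had 293, 185, 289 and 246 CPM, with ratios of −0.66 (−0.75 to −0.58) and −0.23 (−0.30 to −0.16). Edem1, of endoplasmic reticulum quality control, had −0.06 and 0.32, Arl6ip5 −0.43 and −0.22, and Arpc4, an actin nucleation subunit, −0.35 and −0.18. Of 12 metabolism and transport genes found 11 were kept, with medians of −0.18 and −0.13. Slc41a3 was past the fold in both tissues and the calcium pump gene Atp2b2 in spleen. Slc6a6, the taurine transporter, had −0.27 and −0.42, Adipor2, an adiponectin receptor, −0.26 and 0.05, and Suclg2, of the citric acid cycle, 0.36 and −0.13. In all, 1 of these genes, Slc41a3, passed the common genotype test.

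Tissue set many window genes apart. An edgeR quasi-likelihood test of the 2 eWAT against the 2 spleen libraries, in which the genotype difference is part of the spread, called 50 of 137 window genes higher in eWAT (36.5%, against 33.7% of all genes) and 30 lower (21.9%, against 23.2%), while 57 did not pass. The shares lay close to those of all genes. Without the 2KR eWAT library 32 were higher, and without the WT spleen or the 2KR spleen library 15 were lower in each case. The calls over all genes moved too, from 5555 higher to 3403 without 2KR eWAT, and from 3832 lower to 1909 without WT spleen and 2178 without 2KR spleen.

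Genes higher in eWAT included many that spleen Treg libraries barely held. Timp4 had 1 read in both spleen libraries together and 147 in both eWAT libraries, a 198-fold difference (35.1 to 7890). Lhfpl4 and 5031434C07Rik had 0 reads in spleen and were at least 13.0-fold and at least 9.90-fold higher in eWAT against 3 reads over both spleen libraries. The 8430408G22Rik locus was 56.2-fold higher (18.8 to 276). It overlaps Rassf4, which had 626, 878, 99 and 97 reads. Timp4 overlaps Syn2 and 5031434C07Rik overlaps Lmcd1, so reads of these genes may be shared. Magi1, a scaffold protein of cell junctions, had 89.0, 58.8, 4.93 and 4.39 CPM, a log2 fold change of 3.99 (SE 0.26, edgeR adjusted p = 9.51e-08). Cxcl12, a stromal chemokine, had 17.5, 28.4, 1.45 and 0.787 CPM (4.37, SE 0.44, adjusted p = 5.09e-06). Bhlhe40 was higher by 2.03 (SE 0.23, adjusted p = 1.50e-05).

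Fibroblast and mesothelium markers, 5 of 5 found and none at 0, summed to 3.74 to 5.41 CPM in spleen and 198 to 471 CPM in eWAT. Macrophage and monocyte markers, 5 found of 6, summed to 60.4 to 79.3 CPM in spleen and 1168 to 1465 CPM in eWAT. The part of such cells in the tissue differences of Timp4, Cxcl12, Fbln2 and the others was not tested.

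Genes lower in eWAT were well measured in spleen. Lrig1 was lower by the test (log2 fold change −2.29, SE 0.41, edgeR adjusted p = 0.000618), although its 2KR eWAT library stood nearer to spleen than its WT eWAT library. Cacna2d4, a calcium channel subunit, had 6.74, 9.65, 38.4 and 40.0 CPM (−2.26, SE 0.26, adjusted p = 1.79e-05). Cand2, a cullin regulator, had −1.80, and Thumpd3 −1.70. Foxp1 had −1.04 (SE 0.20, adjusted p = 0.000940). By list, transcription and chromatin had 2 genes higher in eWAT and 5 lower of 15 tested, DNA repair 1 and 4 of 8, and signalling 7 and 1 of 13. Turnover and trafficking had 0 and 5 of 12, and metabolism and transport 4 and 0 of 12. Over all genes 33.7% were higher and 23.2% lower. The lists are short, and differences between them were not tested. Slc41a3 (0.22, SE 0.38, edgeR adjusted p = 0.644) and Plxnd1 (0.45, SE 0.35, adjusted p = 0.285) did not pass.

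**Figure D5:**
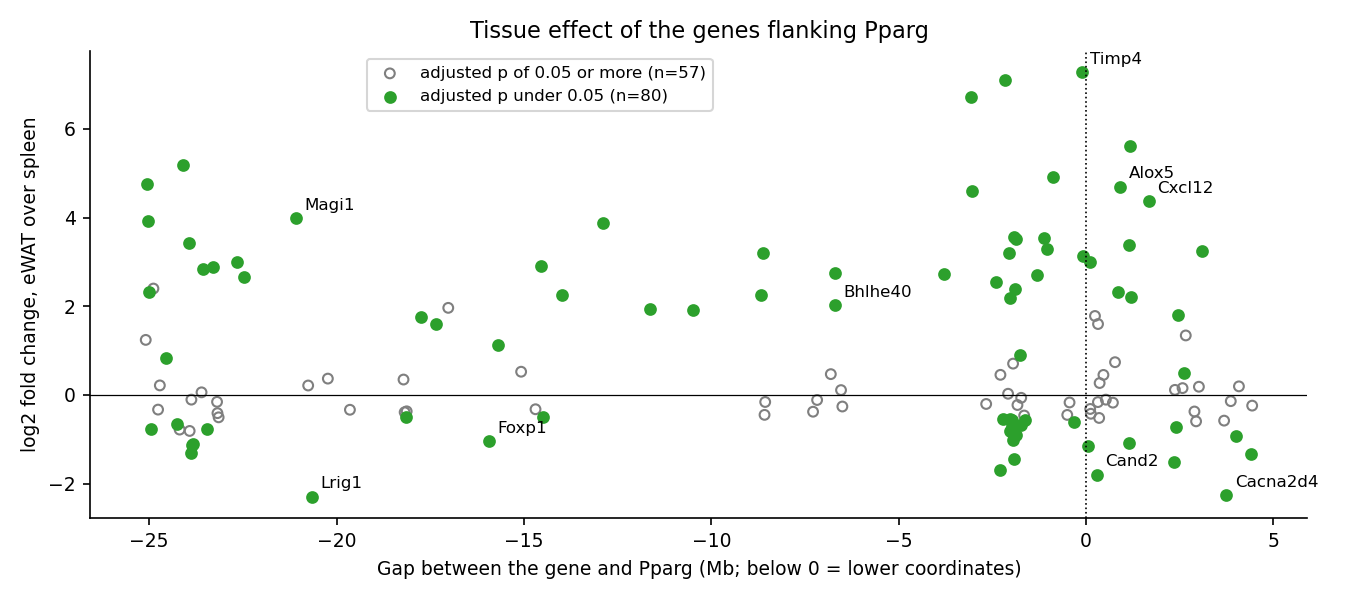
Log2 fold change of eWAT over spleen (y axis) of the 137 window genes tested, against the gap to Pparg in Mb (x axis). Each point is 1 gene, filled where the edgeR adjusted p is under 0.05 (80 genes) and open otherwise (57 genes). Of the filled points 50 lie above 0 and 30 below.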

How the data were processed

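The deposited read counts are whole numbers per gene symbol, made by the authors without scaling. Per the deposited readme, base calls were converted by bcl2fastq (version 1.8.4), and Tophat (version 2.1.0) placed the 100 bp reads on mm9 with at most 4 mismatches and 10 hits. The submitters' processing notes list mm8 beside mm9. Not given in the sources used here are the counting tool and its use of strand. The deposited FPKM values, per locus and transcript, come from the authors' Cufflinks (version 2.0.2) run and served for loci, transcripts and 1 alternative.

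Groups came from the sample labels. Counts were analysed with R 4.3.3, edgeR 4.0.16 (TMM factors 0.934 to 1.159, filterByExpr, quasi-likelihood tests, Benjamini-Hochberg adjustment over 16488 genes, threshold 0.05) and, as an alternative, DESeq2 1.42.0. The coefficients of variation that edgeR terms biological were 0.234 (genotype test) and 0.221 (tissue test), estimated with no replicate of a group. Python 3.11.15 did the rest, and the tests were tested on simulated data. Promoters and exons were read from GRCm38 annotation and not mixed with mm9 coordinates.

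Genes were named by rule: Plxnd1, Slc41a3 and Lrig1, genes past 0.5 in both tissues or past the fold with 10 CPM and 100 reads, the 4 nearest on each side of Pparg, genes called for genotype, up to 4 per direction for tissue, and up to 4 of each role list. Genes in short or full lists, neighbours, edge genes, Slc25a26, Setmar, Magi1 and Cxcl12 were named after their values were seen. Some genes that the rule selects are not reported here. The members and lists were chosen with earlier results of these data known.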

Additional observations from a re-analysis of the deposited data

Results flagged for a closer look

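For 10 of the window genes named here the 2 tissues' ratios of 2KR over WT lay on opposite sides of 0 with counting intervals that did not reach it. Window genes that are not named here also met this rule, and its share over all genes was not counted. Over all genes kept, the 2 tissues' ratios had a Pearson correlation of −0.16. Each ratio compares 1 library with 1 library, and the difference between tissues was not tested. Of the 10, 5 were chosen by the naming rule. Srgap3, which encodes a GTPase-activating protein, had 1.501 in eWAT and −1.26 in spleen, a difference of eWAT minus spleen of 2.76, from 58, 149, 32 and 15 reads in the order used above. Fbln2 had 0.54 and −3.39, a difference of 3.93, with 1 read in 2KR spleen. The others were small: Cand2, a difference of 0.65 (0.43 and −0.22), Hnrnpf of −0.18 (−0.11 and 0.07) and Trnt1, which completes tRNA ends, of −0.72 (−0.49 and 0.23). Cand2 overlaps Rpl32 and Trnt1 overlaps Crbn, so their reads may be shared. The other 5 were named for passing the fold, and each had under 100 reads in every library. Fgd5 differed by 3.94 (0.82 and −3.13, with 1 read in 2KR spleen), Atp2b2 by 3.05 (0.75 and −2.29, with 3 reads in 2KR spleen) and Cntn4 by 2.14 (0.84 and −1.30). Setmar differed by 2.27 (1.52 and −0.75) and Anubl1 by 1.90 (1.25 and −0.65).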

How the results depend on the processing

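Of the summary values recomputed under the alternatives, 66 kept their direction and stayed within 1.5 times the count or within the spread, and 46 moved. Total count scaling gave an eWAT median of 0.18, 17 eWAT genes upward and 1 downward, and 4 genes higher and 2 lower in both tissues, with Slc41a3 in eWAT at −0.98, short of the fold. A minimum of 1 CPM gave 28 and 5 in eWAT, 6 and 20 in spleen and 6 higher and 6 lower in both. A mean of 20 CPM gave an eWAT median of −0.15, 1 and 1 in eWAT, 1 and 2 in spleen and 0 and 1 in both. No filter gave an eWAT median of 0.11, 37 and 7 in eWAT, 8 and 25 in spleen and 9 and 7 in both. FPKM gave 5 upward in eWAT, 1 downward in spleen and 2 lower in both. A prior count of 5 gave 1 higher in both. Windows of 5 Mb on each side and of 100 to 120 Mb hold fewer genes: the first gave 6 and 1 in eWAT, 5 downward in spleen and 2 lower in both, the second 1 downward in eWAT, 6 downward in spleen and 2 lower in both. Slc41a3, the window gene called for genotype, lies 24.7 Mb from Pparg and outside both of these windows. In the full window, requiring 0.3 in both tissues gave 7 and 7, and requiring 1 gave 0 and 2. The other autosomes moved with the same settings. Upward in eWAT the window and the other autosomes gave 14.8% and 10.4% with total count scaling, 18.3% and 13.0% at 1 CPM, 1.54% and 0.640% at a mean of 20 CPM, 20.3% and 14.8% without a filter and 4.35% and 3.17% with FPKM. Downward in spleen they gave 13.1% and 11.6% at 1 CPM, 3.08% and 0.455% at a mean of 20 CPM, 13.7% and 10.97% without a filter and 0.870% and 0.614% with FPKM.

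In the common genotype test no filter gave 2 window genes higher (Lrig1 and Plxnd1) and total count scaling 1 (Plxnd1), where all genes gave 9 and 10 higher. DESeq2 gave 0 lower and the fit without the tissue term 0 lower, of 3 and 0 among all genes. Without the filter 42 of all genes were lower. Leaving out each library in turn gave 32 to 52 window genes higher and 15 to 45 lower in eWAT. These fits leave 1 library in a tissue, which is assumed to vary like the others. Without 1 library the common genotype test has no residual degrees of freedom, and its value is the other tissue's ratio. No paired analysis was possible because the labels carry no replicate numbers and each group has 1 library. With genotype as a term the tissue test gave 46 higher and 32 lower. Genes under 100 reads in both libraries made 7 of the 11 eWAT genes upward and 10 of the 11 spleen genes downward.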
